A study of Homo sapiens with 4 samples.

Results

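The enzymes that make DNA precursors (dNTPs) were examined through the mRNA of 9 genes, RRM1, RRM2, TYMS, TK1, DUT, DCK, DTYMK, SAMHD1 and UMPS, in human clear cell renal cell carcinoma (ccRCC) cells with or without knockdown of PML. The genes were chosen by symbol, all 9 had a row among the 59050 genes of the count table, and all 9 were among the 16516 genes that passed the filter on low counts. The cells were RCC4, an established ccRCC line, carrying a doxycycline-inducible hairpin, either the scrambled shCtrl or a single hairpin against PML (shPML, hairpin shPML#1). Every group received doxycycline at 100 ng/ml for 96 h. There were 2 shCtrl and 2 shPML libraries, from 2 experiments with independent lentiviral infections, and each shPML library was compared with the shCtrl library of the same replicate number. Effects of this hairpin on targets other than PML and effects of PML loss cannot be told apart, because a second hairpin was not sequenced in these samples.

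Levels are given as CPM, which scales counts to a fixed library size with TMM factors, and as RPKM, the CPM per kilobase of exonic length, where genes are compared with each other. Between 27781193 and 69870617 reads were counted per library. PML (GRCh38 chr15:73994673-74047812) was at 93.1 and 136 CPM in shCtrl replicates 1 and 2 and at 54.9 and 87.6 CPM in shPML, 41.1% and 35.6% lower within the replicates. Its log2 fold change was -0.69 without a block for the experiment (edgeR adjusted p = 0.32) and -0.70 with it (4.2e-07). In the fit without the block the PML value ran from -1.06 without shPML replicate 2 to -0.40 without shPML replicate 1 or shCtrl replicate 2, since both replicate 2 libraries were the higher of their group. Of 10 renal epithelial and ccRCC markers, 9 were over 1 CPM in every library, and UMOD, a marker of one segment of the normal tubule, had 0 counts.

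The shPML replicate 2 library stood apart from the other 3 in markers of other cells. Of 19 leukocyte and myeloid markers, listed after the first such values had been seen, 17 were over 1 CPM in that library and 2 in each of the others, and their summed level was 346 CPM against 3.64 to 5.58 CPM. LYZ was at 85.4 CPM there and at most at 0.074 CPM elsewhere, and PTPRC, the pan-leukocyte antigen CD45, was at 12.6 CPM against at most 0.098 CPM. PECAM1, listed among endothelial genes, was at 4.11 CPM there. Of the other endothelial genes listed, VWF was at 0.255 CPM in that library, and CDH5 and KDR had 0 counts in it. CD68 and the granule gene MPO also had 0 counts in it, and CD3E had 0 counts in all 4 libraries. The liver gene ALB was at 3.18 and 3.78 CPM in the replicate 1 libraries and at 0 in replicate 2. The part of these markers in the results was not tested. The log2 ratios of replicate 1, which does not hold that library, or the levels in every library are given for the 9 genes and for the other genes described. Genes named only as nearest profiles are an exception, since those profiles cover all 4 libraries.

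Dividing cells must keep the 4 dNTPs in supply and in balance. Ribonucleotide reductase, made of a large subunit (RRM1) and a small one (RRM2), converts ribonucleotides to deoxyribonucleotides. Thymidine nucleotides come from de novo methylation of dUMP by thymidylate synthase (TYMS) or from salvage of thymidine by TK1, and both routes meet at the kinase DTYMK. DUT splits dUTP and so gives dUMP while keeping uracil out of DNA, DCK salvages deoxycytidine and the purine deoxynucleosides, SAMHD1 breaks dNTPs down, and UMPS closes the de novo pyrimidine route at UMP. RRM2, TYMS and TK1 are known as genes that are transcribed mainly around S phase.

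All 9 genes were lower in shPML than in shCtrl within both replicates. How many of all genes tested had this direction was not counted. RRM1, TK1 and RRM2 were 40.4% to 55.1% lower, whereas UMPS and DCK were 18.1% to 20.8% lower and SAMHD1 22.7% and 6.65% lower. For 7 of the 9 genes both shPML libraries were below both shCtrl libraries, an order that 24.9% of all genes tested had. The median log2 ratio of the 9 genes was -0.42 in replicate 1, which did not include the library with leukocyte markers, and -0.62 in replicate 2. Over all genes tested the medians were 0.00 in both replicates.

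With the quasi-likelihood test of edgeR without a block for the experiment, 0 of the 9 genes passed an adjusted p of 0.05 (Benjamini-Hochberg over all genes tested) together with a log2 fold change beyond 0.5, where 0.333% of all genes were called lower. At an unadjusted p under 0.05, 5 of the 9 were lower (RRM1, RRM2, TYMS, TK1 and DTYMK), against 10.1% of all genes. With the experiment as a block, edgeR called 4 of the 9 lower, RRM1, RRM2, TK1 and DUT, where 10.5% of all genes were called lower. By the adjusted p alone that fit passed 8 of 9, all but SAMHD1, against 15.7% of all genes. DESeq2 with the block called the same 4 genes, where 9.62% of the 13477 genes it tested were called lower, and without the block it called RRM1, RRM2 and TK1, where 5.58% of 15138 genes were called lower. The 13 pseudogenes named after RRM2, TYMS or DUT had at most 7 counts each over the 4 libraries, and how reads that match a gene and its copy equally well were treated is not known here. In bulk RNA, fewer cells of a type and less RNA per cell cannot be told apart.

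**Figure D1:**
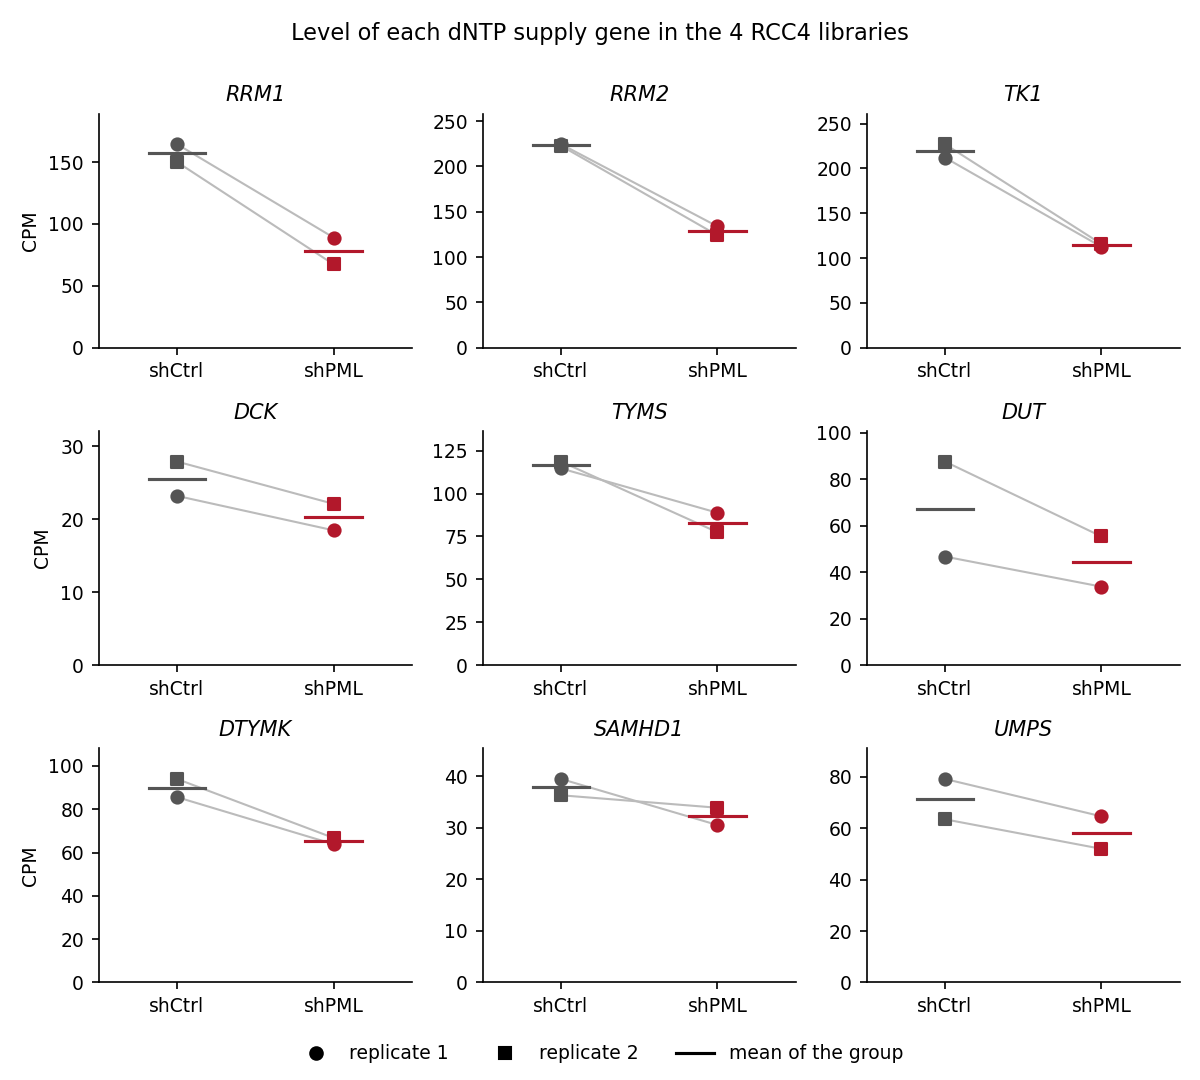
CPM of the 9 genes in each of the 4 libraries, with shCtrl in grey and shPML in red, a circle for replicate 1, a square for replicate 2, a line joining the libraries of a replicate and a bar at the mean of a group. Every joining line slopes downward, and the groups overlap only for DUT and UMPS.

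The promoter of each gene was read as well. Whether promoter letters have a part in the lower levels was not tested. RefSeq windows from 250 bases before to 50 bases after a start site (GRCh38.p14) were found for all 9 genes, 14 windows in all, and were searched on both strands for 4 kinds of word. Words of the E2F type with 8 letters (TTTGGCGC, TTTCCCGC, TTTCGCGC or TTTGCCGC) were in 3 of the 14 windows, of TYMS, DUT and DCK, and in 3.31% of all 35116 windows. The shorter words TTCCCGC and TTGGCGC, which lie within some of those, were in 6 of the 14 windows and in 9.23% of all windows. These 6 windows belong to RRM1, RRM2, TYMS, TK1, DUT and DCK. The CCAAT box, the letters bound by NF-Y, was in 6 of the 14 windows, of RRM1, RRM2, TK1, DTYMK and SAMHD1, and in 34.6% of all windows. The cell cycle homology region (TTTGAA or TTCGAA) was in 4 of the 14 windows, of RRM1, DUT, DTYMK and UMPS, and in 16.4% of all windows.

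The stretches that hold these words are shown for 7 of the genes, 5′ to 3′ on the strand of the gene, with the matched words in capitals, also where the match is on the other strand. The first 5 are genes with an E2F word in a window, and DTYMK and SAMHD1 are shown as genes with CCAAT boxes alone or beside a cell cycle homology word. The letters GCGGGAA in TYMS, TK1 and DUT are the other strand of TTCCCGC, and positions count back from -1, the base just before the start. The stretches of RRM2, TK1, DUT and SAMHD1 lie before a RefSeq start but overlap exons of the same gene in the annotation of the count table. These matches are descriptions of letters, not of bound sites.
RRM1 (chr11:4094445-4094504, + strand, a shorter E2F word and a cell cycle homology word): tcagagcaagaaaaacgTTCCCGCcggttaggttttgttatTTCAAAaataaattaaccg
RRM2 (chr2:10122634-10122663, + strand, the middle of 3 CCAAT boxes at -123, -93 and -66 from a start): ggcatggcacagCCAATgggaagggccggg
TYMS (chr18:657583-657642, + strand, an E2F word at -39): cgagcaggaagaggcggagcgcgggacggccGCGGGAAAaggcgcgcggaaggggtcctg
TK1 (chr17:78187053-78187082, - strand, a shorter E2F word at -12): tggtttaaagcggtcggcGCGGGAAccagg
DUT (chr15:48332151-48332180, + strand, 2 E2F words of 8 letters): gctgGCGGGAAAtttcggtTTTGGCGCgct
DTYMK (chr2:241686826-241686915, - strand, 2 CCAAT boxes and a cell cycle homology word): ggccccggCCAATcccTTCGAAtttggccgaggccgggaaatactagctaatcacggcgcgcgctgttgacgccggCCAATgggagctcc
SAMHD1 (chr20:36951735-36951764, - strand, 2 CCAAT boxes and no E2F word in its window): caggaggCCAATaggctgCCAATactcctt

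Both subunits of ribonucleotide reductase were lower in shPML, RRM1 more than RRM2 in each replicate. RRM1 (GRCh38 chr11:4094799-4138932, + strand), the large subunit with the catalytic and regulatory sites, was at 165 and 150 CPM in shCtrl replicates 1 and 2 and at 89.1 and 67.4 CPM in shPML. The groups did not overlap, and the log2 ratios within replicates were -0.89 and -1.16. The log2 fold change of RRM1 was -1.01 (SE 0.19, adjusted p = 0.086, edgeR without the block) and -1.02 with the block (SE 0.11, 95% interval -1.23 to -0.80, adjusted p = 9.3e-12). Without the shPML replicate 2 library the fit without the block gave -0.82 for RRM1.

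RRM2 (GRCh38 chr2:10120698-10210597, + strand), the small subunit that carries the tyrosyl radical, was at 225 and 223 CPM in shCtrl and at 134 and 124 CPM in shPML. The 2 libraries of each group lay close together, and the groups were well apart. The log2 ratios were -0.75 and -0.85, and the log2 fold change was -0.80 without the block (SE 0.15, adjusted p = 0.081, edgeR) and -0.80 with it (SE 0.10, adjusted p = 2.4e-09). RRM2B, the p53-inducible alternative to RRM2, was at 25.8 and 22.9 CPM in shCtrl and at 21.5 and 25.3 CPM in shPML, and its groups overlapped. Its log2 ratios of -0.26 and 0.15 pointed in opposite directions, and it was not called with the block (log2 fold change -0.06, edgeR adjusted p = 0.78).

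The level of RRM2 relative to RRM2B, as a ratio of RPKM, was 10.3 and 11.6 in shCtrl and 7.37 and 5.81 in shPML. The ratio of RRM1 to RRM2B was 9.59 and 9.87 in shCtrl and 6.22 and 4.0 in shPML. Both ratios were lower in shPML within each replicate, while the ratio of RRM2 to RRM1 was 1.08 and 1.17 in shCtrl and 1.19 and 1.45 in shPML.

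**Figure D2:**
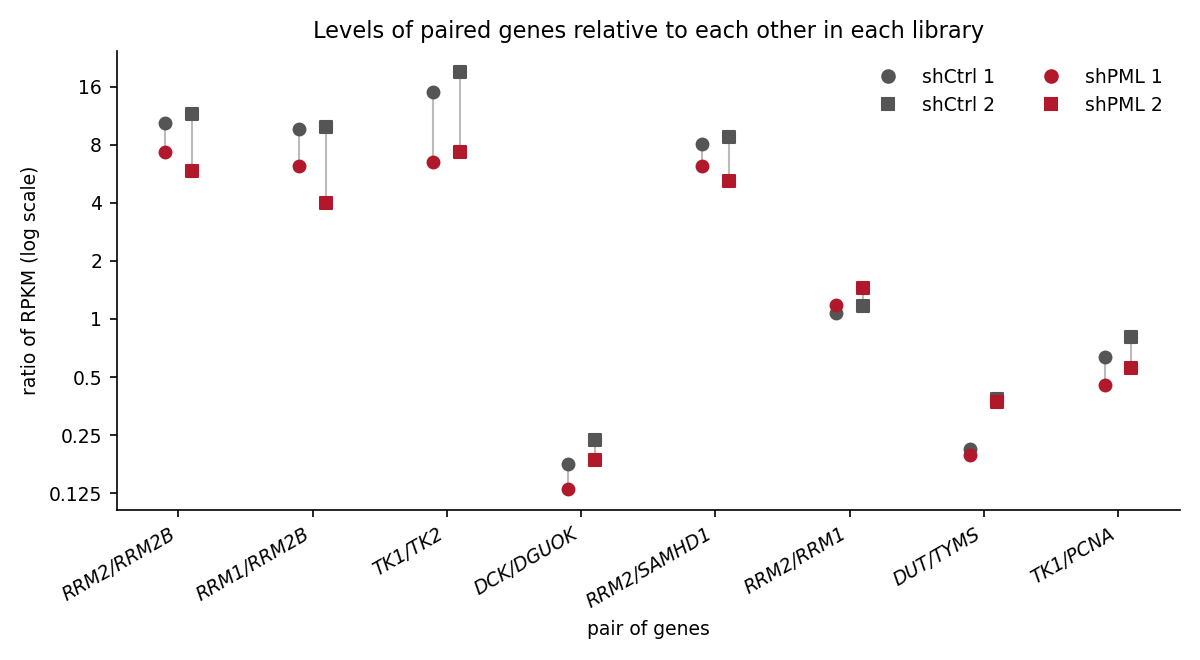
Ratio of the RPKM of 2 genes in each library on a log scale, with shCtrl in grey, shPML in red, circles for replicate 1 and squares for replicate 2. The shPML ratios lie below the shCtrl ratio of the same replicate for RRM2/RRM2B, RRM1/RRM2B, TK1/TK2, DCK/DGUOK, RRM2/SAMHD1 and TK1/PCNA, lie above it for RRM2/RRM1, and are nearly level for DUT/TYMS.

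Of the salvage kinases, TK1 showed a large difference and DCK a small one. TK1 (GRCh38 chr17:78174091-78187233, - strand), the cytosolic thymidine kinase, was at 212 and 227 CPM in shCtrl and at 113 and 116 CPM in shPML, 47.0% and 49.1% lower. The groups were far apart, with log2 ratios of -0.91 and -0.97. The log2 fold change of TK1 was -0.95 without the block (SE 0.15, adjusted p = 0.066, edgeR) and -0.94 with it (SE 0.10, adjusted p = 1.7e-11). TK2, the mitochondrial thymidine kinase, was at 49.6 and 41.8 CPM in shCtrl and at 60.8 and 55.4 CPM in shPML. It was named here for its function after its values were seen, and its difference stayed under the fold threshold (log2 fold change 0.35 with the block, edgeR adjusted p = 0.018). The RPKM ratio of TK1 to TK2 was 15.0 and 19.1 in shCtrl and 6.50 and 7.34 in shPML.

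DCK (GRCh38 chr4:70993638-71030914, + strand), the deoxycytidine kinase, was at 23.2 and 27.9 CPM in shCtrl and at 18.5 and 22.1 CPM in shPML. The groups did not overlap, although the shPML replicate 2 library came close to the shCtrl replicate 1 library, and the log2 ratios were -0.33 and -0.34. DCK did not reach the fold threshold, with a log2 fold change of -0.33 in both edgeR fits (adjusted p = 0.45 unblocked, 0.045 blocked, and 0.25 by DESeq2 blocked). DGUOK, the mitochondrial kinase for purine deoxynucleosides, also named after its values were seen, was at 57.5 and 51.9 CPM in shCtrl and at 61.3 and 51.9 CPM in shPML.

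The genes of dTTP synthesis were all lower, by less than RRM1 or TK1 in each replicate. TYMS (GRCh38 chr18:657653-673578, + strand), which methylates dUMP to dTMP, was at 115 and 119 CPM in shCtrl and at 88.8 and 77.5 CPM in shPML. The groups did not overlap, and the log2 ratios within replicates were -0.37 and -0.62. For TYMS edgeR gave a log2 fold change of -0.49 in both fits, just short of the threshold of 0.5, with an adjusted p of 0.20 when the block was left out and 0.00023 when it was used. TYMS shares 967 exonic bases, 60.0% of its exonic length, with ENOSF1 on the opposite strand, which had 187 to 743 counts against 2130 to 6369 for TYMS. The strand setting of the counting is not given in the sources used here, so reads of this pair cannot be told apart with certainty.

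DTYMK (GRCh38 chr2:241675747-241686815, - strand), the kinase that turns dTMP into dTDP, was at 85.6 and 94.0 CPM in shCtrl and at 63.9 and 66.7 CPM in shPML. Its groups did not overlap, and its log2 ratios were -0.42 and -0.49. In both edgeR fits DTYMK had a log2 fold change of -0.46, below the threshold, and its adjusted p was 0.20 unblocked and 0.00081 blocked.

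DUT (GRCh38 chr15:48331011-48343373, + strand), the dUTPase, differed more between experiments than between conditions. It was at 46.7 and 87.6 CPM in shCtrl replicates 1 and 2 and at 33.7 and 55.4 CPM in shPML, and the groups overlapped. Within a replicate the shPML library was the lower one, with log2 ratios of -0.47 and -0.66. The log2 fold change of DUT was -0.59 without the block (SE 0.38, adjusted p = 0.50, edgeR) and -0.57 with it (SE 0.12, adjusted p = 9.3e-05), where it was called lower. In the fit without the block it was -0.99 without the shPML replicate 2 library and -0.08 without the shCtrl replicate 2 library. DUT shares 533 exonic bases with the antisense gene AC023355.1, which had 22 to 63 counts against 1522 to 3154 for DUT.

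SAMHD1 (GRCh38 chr20:36889773-36951901, - strand), the dNTP triphosphohydrolase, was the one gene of the 9 that did not pass the adjusted p of edgeR with the block. It was at 39.4 and 36.3 CPM in shCtrl and at 30.5 and 33.9 CPM in shPML. The groups did not overlap, but the log2 ratios were -0.37 in replicate 1 and only -0.10 in replicate 2, where the 95% counting interval of -0.22 to 0.02 included 0. Both edgeR fits put SAMHD1 at a log2 fold change of -0.24 (adjusted p = 0.53 unblocked and 0.14 blocked), and the 95% interval of the blocked fit ran from -0.49 to 0.01. The shPML replicate 2 library, in which the ratio was nearest to 0, was the one with leukocyte and myeloid markers, and SAMHD1 is known to be abundant in myeloid cells. Their part in this value was not tested, and without that library the fit without the block gave -0.31. The RPKM ratio of RRM2, on the side of synthesis, to SAMHD1, on the side of breakdown, was 8.08 and 8.72 in shCtrl and 6.23 and 5.20 in shPML.

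UMPS (GRCh38 chr3:124730445-124749273, + strand), the last enzyme of de novo UMP synthesis, was at 79.1 and 63.4 CPM in shCtrl and at 64.6 and 51.9 CPM in shPML. The groups overlapped, because both libraries of replicate 1 were higher than their counterparts, and the log2 ratio was -0.29 in each replicate. UMPS was also short of the fold threshold, with a log2 fold change of -0.29 in both edgeR fits (adjusted p = 0.53 unblocked, 0.045 blocked, and 0.12 by DESeq2 blocked). CAD, which catalyses the opening steps of the same route, was at 279 and 255 CPM in shCtrl and at 254 and 281 CPM in shPML, and edgeR with the block put its log2 fold change at 0.00 (adjusted p = 0.99). DHODH, the mitochondrial step between CAD and UMPS, had a log2 fold change of -0.17 in the same fit (edgeR adjusted p = 0.39) and a log2 ratio of -0.03 in replicate 1.

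**Figure D3:**
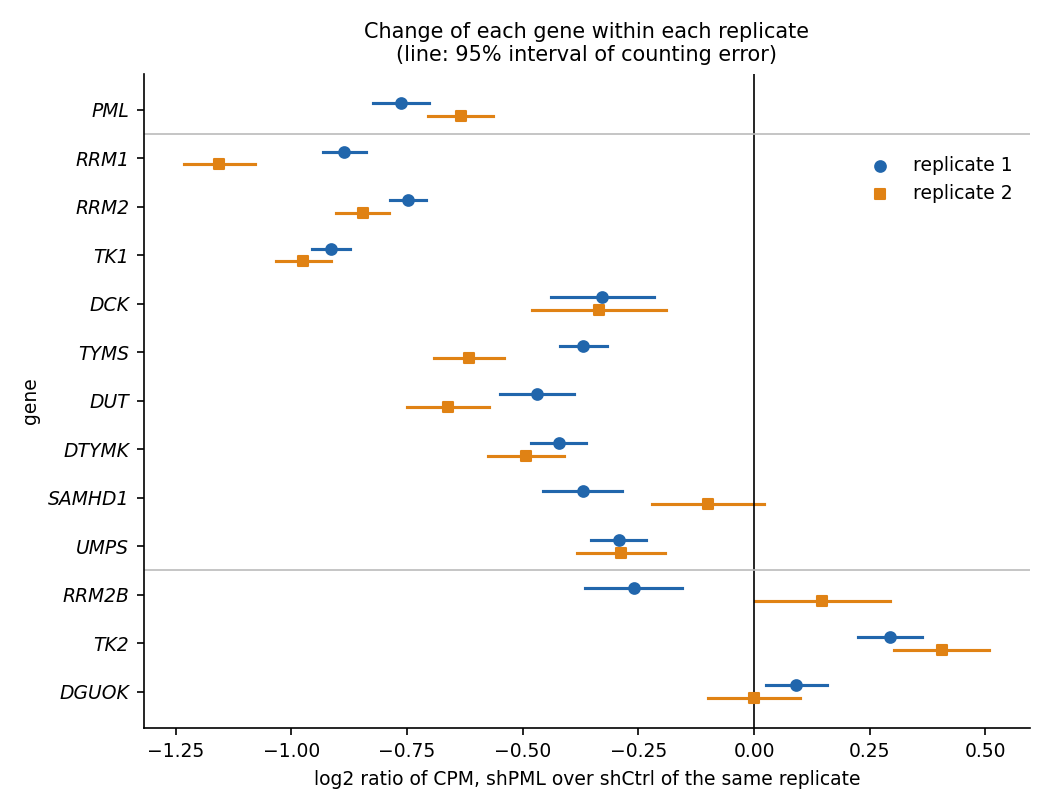
Log2 ratio of CPM between shPML and shCtrl of the same replicate for PML (top), the 9 genes and 3 counterparts (bottom), with blue circles for replicate 1, orange squares for replicate 2 and lines for the 95% interval of counting error alone. The 9 genes lie below 0 in both replicates, from -1.16 for RRM1 to -0.10 for SAMHD1, while TK2 lies above 0 in both and RRM2B on either side.

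Between genes, the order of the levels was the same in both conditions. In shCtrl the mean RPKM was 128 for TK1, 85.4 for DTYMK, 72.4 for TYMS, 51.5 for RRM2, 45.9 for RRM1, 21.7 for DUT, 10.6 for UMPS, 9.78 for DCK and 6.15 for SAMHD1 (n = 2 each). In shPML the mean RPKM was 66.7 for TK1, 62.1 for DTYMK, 51.6 for TYMS, 29.7 for RRM2, 22.8 for RRM1, 14.4 for DUT, 8.69 for UMPS, 7.76 for DCK and 5.22 for SAMHD1. In both conditions the neighbours UMPS and DCK overlapped between libraries, and each other gene was above the next one in both libraries. The lead of TK1 over DTYMK was small in shPML, where TK1 was at 65.8 and 67.6 RPKM and DTYMK at 60.8 and 63.5 RPKM.

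Outside the 9 genes, 85 genes of 6 nucleotide pathway lists were read, of which 80 were tested. With the block edgeR called 12 of them lower and 8 higher, where 10.5% and 8.57% of all genes were called in these directions. These shares were not tested against each other, nothing is read from the list counts, and the genes below are described one by one. Their median log2 fold change was -0.07, against -0.49 for the 9 genes and 0.00 for all genes in the same fit. Without the block 2 were called lower, PRPS2 and GGH, and 1 higher, AMPD3.

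De novo purine synthesis had a median log2 fold change of -0.07 over 13 genes, with 2 called lower, 1 higher and 10 not called with the block. Of all genes tested, 10.5% were called lower and 8.57% higher in that fit. PRPS2, a synthetase of phosphoribosyl pyrophosphate, from which purines and pyrimidines are built, was at 94.4 and 125 CPM in shCtrl and at 12.2 and 17.0 CPM in shPML. Its log2 fold change was -2.91 in both edgeR fits (adjusted p = 0.048 unblocked and 7.7e-28 blocked). The log2 ratio of PRPS2 was -2.95 in replicate 1. Its paralog PRPS1 was called lower with the block at -0.69 (-0.61 in replicate 1). The adenylosuccinate synthase ADSS1 was called higher at 0.88, with unequal log2 ratios of 1.31 and 0.43, and was not called by DESeq2 with the block (adjusted p = 0.13).

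Of the 4 genes of de novo pyrimidine and CTP synthesis, both CTP synthases were called lower by edgeR with the block, CTPS1 at -0.67 (-0.62 in replicate 1) and CTPS2 at -0.53 (-0.57 in replicate 1), and CAD and DHODH were not. DESeq2 with the block did not call CTPS2 (adjusted p = 0.058). In folate and one-carbon supply, 4 of 13 genes were called lower and 1 higher by edgeR with the block, with a median of -0.21. Over all genes tested that fit called 10.5% lower and 8.57% higher. GGH, which trims polyglutamate from folates, was at 61.0 and 68.2 CPM in shCtrl and at 18.9 and 19.7 CPM in shPML (log2 fold change -1.74, edgeR adjusted p = 0.048 without and 5.2e-18 with the block). The mitochondrial serine hydroxymethyltransferase SHMT2, at -0.63 (-0.55 in replicate 1), and the polyglutamate synthase FPGS, at -0.67 (-0.75 in replicate 1), were also called lower with the block.

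Among 24 genes of nucleoside salvage, nucleotide kinases and other dNTP supply, 2 were called lower, 2 higher and 20 not called with the block. In that fit 10.5% of all genes were called lower and 8.57% higher. The median log2 fold change of the 24 genes was 0.03. The kinase NME6, at -1.04 (-0.96 in replicate 1), and the dCMP deaminase DCTD, which provides dUMP, at -0.51 (-0.53 in replicate 1), were the lower ones, and DESeq2 with the block did not call DCTD, for which it gave -0.50. The kinases NME3 and GUK1 were the higher ones. GUK1 was at 0.52 with log2 ratios of 0.48 and 0.56, and NME3 at 0.67 with log2 ratios of 0.47 and 0.86. The groups of NME3 overlapped, with 23.6 and 37.9 CPM in shCtrl and 32.6 and 69.0 CPM in shPML. In nucleoside transport 6 of 8 genes were tested and 0 were called by edgeR with the block. At an unadjusted p under 0.05 that fit had 1 of the 6 higher, where 3137 of all 16516 genes tested were higher. DESeq2 with the block also called 0 of this list.

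In nucleotide breakdown and pool sanitation 20 of 23 genes were tested, with 2 called lower and 4 higher with the block and a median of 0.02. In that fit 10.5% of all genes were called lower and 8.57% higher. NT5E, the ecto-nucleotidase CD73, was at 55.2 and 39.8 CPM in shCtrl and at 155 and 162 CPM in shPML (log2 fold change 1.75, edgeR adjusted p = 0.052 without and 2.6e-19 with the block). AMPD3, an AMP deaminase, was at 18.3 and 15.0 CPM in shCtrl and at 48.5 and 53.6 CPM in shPML, and its paralog AMPD2 was called lower with the block at -0.66 (-0.70 in replicate 1). NUDT1, which clears oxidized dGTP, was called lower with the block at -0.67 (-0.74 in replicate 1), and the mitochondrial deoxyribonucleotidase NT5M, named after its values were seen, higher at 1.95 (1.69 in replicate 1) from levels of at most 1.56 CPM. TYMP, the thymidine phosphorylase, was called higher with the block, but it was at 0.83, 1.5 and 1.05 CPM in shCtrl replicates 1 and 2 and shPML replicate 1 and at 19.5 CPM only in shPML replicate 2. That library is the one with leukocyte and myeloid markers, whose part in the TYMP value was not tested, within replicate 1 its log2 ratio was 0.33, and DESeq2 with the block did not call it (adjusted p = 0.29).

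**Figure D4:**
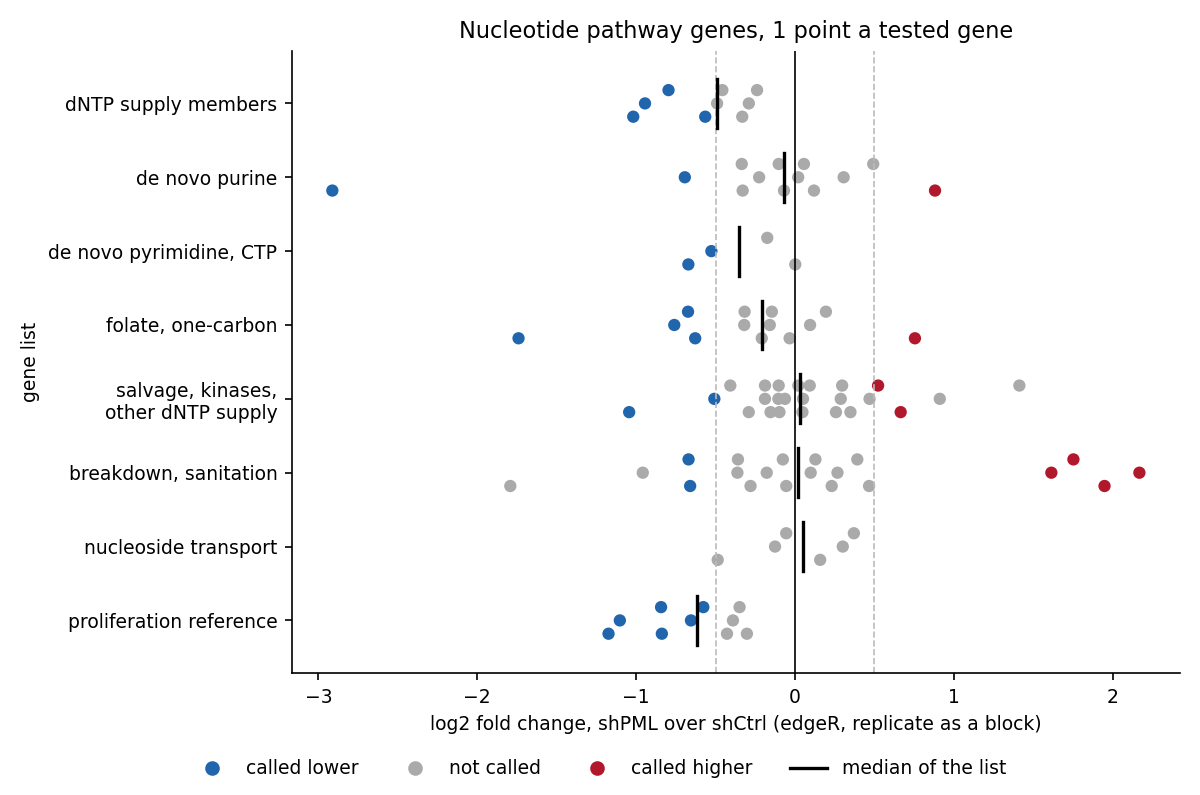
Log2 fold change between shPML and shCtrl (edgeR with the experiment as a block) for each tested gene of 8 lists, with genes called lower in blue, called higher in red and not called in grey. Black bars mark medians and dashed lines the threshold of 0.5. The 9 genes and the proliferation reference genes lie wholly below 0. In de novo pyrimidine and CTP synthesis 3 of 4 genes lie below 0 and CAD lies at 0.00. The other lists spread to both sides.

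As a reference for cell division, 10 proliferation genes were read beside the 9. All 10 were lower within both replicates, a direction that was not counted over all genes. By edgeR 6 were called lower with the block and 0 without it (6 at an unadjusted p under 0.05), and DESeq2 called 6 in either design. Of all genes tested, edgeR called 10.5% lower with the block and 0.333% without it. At an unadjusted p under 0.05 without the block, 10.1% of all genes were lower. DESeq2 called 9.62% lower with the block and 5.58% without it. The median log2 fold change of the 10 proliferation genes was -0.62. Their median log2 ratios were -0.60 and -0.64 in replicates 1 and 2, against -0.42 and -0.62 for the 9 genes. MCM2, a subunit of the replicative helicase, was at -1.17 (-1.19 in replicate 1) and TOP2A, the mitotic topoisomerase, at -1.10 (-1.07 in replicate 1) with the block. Relative to PCNA, the sliding clamp of DNA polymerase, the RPKM ratio of TK1 was 0.638 and 0.810 in shCtrl and 0.454 and 0.556 in shPML. The ratio of TYMS to PCNA was 0.366 and 0.449 in shCtrl and 0.380 and 0.395 in shPML, slightly higher in shPML within replicate 1 and lower within replicate 2. The part of cell division in the values of the 9 genes was not tested.

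The genes whose profiles were most like those of the 9 were found among 80 pathway genes by the Euclidean distance of centred log2 CPM over the 4 libraries, a description in which conditions and experiments both weigh. The nearest to RRM1 was NME6 (0.104), followed by PRPS1 and CTPS1. RRM2 lay near SHMT2 (0.194) and NUDT1, and TK1 near NME6 (0.275) and NUDT1. TYMS lay near ITPA (0.141) and DCTD, and DTYMK near UCK1 (0.071) and DCTD. DCK lay nearest to SHMT1 (0.116), UCK1 and CTPS2, SAMHD1 to MTHFD2 (0.160), RRM2B and SHMT1, and UMPS to DCTPP1 (0.115), ADK and GMPS. DUT stood apart, since its nearest gene, FPGS, was at a distance of 0.325, followed by AMPD2 and MTHFD2L. Among the 9 genes themselves, the closest pairs were RRM2 with TK1 and TYMS with DTYMK, both at 0.197, and the farthest was RRM1 with DUT at 1.17.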

How the data were processed

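RNA of 4 RCC4 libraries was analysed. Per the labels and methods, the authors trimmed reads of stranded mRNA libraries with Trimmomatic 0.39, used STAR for alignment to GRCh38 and featureCounts 1.6.4 for counting per gene; the deposited values are raw read counts without normalization. The annotation release and strand setting are not given in the sources used here. A note in the record states that labels of 2 samples had been swapped and then corrected, and the corrected labels were used. Whether the columns of the table follow them is not stated in the sources used here. PML was lower in the shPML column of each number, which bears on the condition and not on which libraries pair. The shCtrl and shPML columns without a number were taken as replicate 1, since the others carry number 2.

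Counts were tested with edgeR 4.0.16 (filterByExpr, TMM, quasi-likelihood, Benjamini-Hochberg) in R 4.3.3, without a block. The thresholds for a call were 0.05 on the adjusted p and 0.5 on the size of the log2 fold change. DESeq2 1.42.0, other filters, scalings and thresholds, each library left out and the replicate as a block were alternatives. The study describes 2 experiments, read as the replicate numbers; deviations of same-numbered libraries correlated at 0.537, and the common dispersion was 0.0813 without and 0.0137 with the block. Replicates came from independent infections of 1 line. Counting intervals cover counting error only, at 95%. RPKM used the deposited exonic lengths.

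The genes, the lists and the rule for named genes were chosen with earlier results of these data known. Named were the 9 genes, PML, list genes called without the block, up to 4 per list with the smallest p with the block, RRM2B, CAD and DHODH, and the 3 nearest profiles of each gene. Some genes within this rule are not reported here, but list counts include them. The fits were also run on simulated data, with planted changes larger than those of most of the 9 genes. That run does not show how the fits handle smaller changes, and nothing is read from it here. Figures were drawn with matplotlib 3.10.9 in Python 3.11.15.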

Additional observations from a re-analysis of the deposited data

How the results depend on the processing

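The 9 genes kept their direction in all 117 values under 13 alternatives, 22 of which newly passed the test. These alternatives used the same libraries, or all but 1 of them, and the 9 genes were lower within both replicates. The kept direction is therefore no separate evidence, and how many of all genes kept theirs was not counted. Against 0 of 9 genes called, 4 were called with the replicate block in edgeR, in DESeq2, with RLE normalization and with library size alone (added after the data were seen). Without the block, 3 were called with DESeq2 and 3 without a filter. With the block, 8 were called with no fold threshold and 1 (RRM1) at a log2 fold change over 1. Of all genes, edgeR called 0.333% lower without the block, 10.5% with it, and 15.7% with it and no fold threshold. DESeq2 called 5.58% lower without the block and 9.62% with it. These shares were not counted for RLE or library size with the block, without a filter, or for a log2 fold change over 1. The lowest and highest log2 fold changes were -0.99 and -0.08 for DUT, -0.47 and -0.11 for UMPS, -0.47 and -0.20 for DCK (without shPML replicate 2 and without shCtrl replicate 2), -0.31 and -0.16 for SAMHD1 and -1.23 and -0.82 for RRM1. PML was at -0.69 without the block and passed the test at -0.70 with the replicate block, -0.69 with DESeq2 and with RLE in that design, -0.67 with library size alone there, and -0.68 without a filter. With single libraries left out PML ran from -1.06 (without shPML replicate 2) to -0.40 (without shPML replicate 1 or shCtrl replicate 2). RLE without the block called 0 of all genes (smallest adjusted p 0.0501, 2967 at an unadjusted p under 0.05, while DESeq2 without the block called 545 higher and 845 lower).

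For the lists, counts without the block were 1 (purine), 0 (pyrimidine), 1 (folate), 0 (salvage), 1 (breakdown), 0 (transport) and 0 (proliferation). In the same order they were 3, 2, 5, 4, 6, 0 and 6 with the replicate block, 2, 1, 5, 3, 4, 0 and 6 with DESeq2 and the block, 4, 2, 5, 3, 6, 0 and 6 with RLE or library size and the block, 7, 2, 6, 9, 11, 1 and 10 with no fold threshold and the block, and 2, 1, 4, 2, 4, 0 and 4 without a filter. DESeq2 without the block called 1 purine, 3 folate, 1 salvage, 2 breakdown and 6 proliferation genes. RLE without the block called 0 purine, folate and breakdown genes. Library size alone and at least 10 counts in every library each called 1 purine, 1 folate and 2 breakdown genes. A log2 fold change over 1 with the block called 1 purine, 1 folate, 1 salvage, 4 breakdown and 2 proliferation genes. Leaving out each library gave 0 to 1 for purine and for folate, with 0 without shCtrl replicate 1, shCtrl replicate 2 or shPML replicate 2, and 0 to 3 for breakdown, with 3 without shPML replicate 1 and 0 without any other. In these fits the lone library of a group was assumed to vary like the other group. With 2 libraries a group, a missed call without the block does not show that a gene did not differ.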

Other observations

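Genes of myeloid cells outside the nucleotide pathways were also high in the shPML replicate 2 library alone. CD14 was at 42.8 CPM there and at most at 0.11 CPM in the other 3 libraries, the haemoglobin scavenger receptor CD163 at 23.2 against at most 0.083 CPM, and the transcription factor SPI1 at 14.2 against at most 0.25 CPM. Of 5 granule progenitor genes 0 and of 6 lymphoid genes 0 were over 1 CPM in any library.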
